A study of Mus musculus with 7 samples.

Results

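Among the 9 genes of the vascular endothelial growth factor (VEGF) family examined here, *Vegfa* and *Kdr* were higher in aged mouse skin after topical ABT-263 than after vehicle, and the other 7 did not pass the test, where 24.2% of all genes tested passed and 12.4% passed as higher. *Vegfa*, the ligand that drives most blood vessel growth, was 2.53-fold higher, and *Kdr*, the receptor through which it mainly signals, was 1.96-fold higher. *Flt1*, the second receptor for the same ligand, had a log2 fold change of 0.15 with a 95% interval from −0.46 to 0.76, in skin where 12 of 20 markers of blood endothelium rose. The 9 genes were taken by name from the 55450 genes of the count table: the ligands *Vegfa*, *Vegfb*, *Vegfc* and *Pgf*, the receptors *Flt1*, *Kdr* and *Flt4*, and the co-receptors *Nrp1* and *Nrp2*. All 9 passed the filter on low counts and were among the 17959 genes tested.

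Dorsal skin was taken from wild type C57BL/6 male mice, all 24 months old, and sequenced in bulk with 1 library per mouse. In 3 mice (476, 477 and 478) the skin had been treated topically for 5 days with 5 µM ABT-263 (navitoclax), which inhibits anti-apoptotic proteins of the Bcl-2 family and is used to remove senescent cells, and in 4 mice (480 to 483) with the vehicle DMSO alone. Both groups had their dorsal hair removed with clippers and a depilatory lotion, and both carried a semi-occlusive dressing over the treated skin. The study asked what clearing senescent cells does to aged skin before it is wounded, and the comparison of these libraries asks which genes differ between the treatments. Total counts lay between 20344364 and 26824123 in the DMSO-treated mice and between 27325963 and 43562330 in the ABT-263-treated mice, so every ABT-263 library was the larger. Levels are given in CPM, the count of a gene scaled to a common library size, after TMM normalization, which also corrects for composition. Fold changes and adjusted p-values are from the quasi-likelihood test of edgeR, two-sided, with Benjamini-Hochberg adjustment over all 17959 genes tested and a threshold of 0.05. Keratinocyte and fibroblast transcripts were abundant, with *Krt14* between 8427 and 24884 CPM and *Col1a1* between 1707 and 3718 CPM over all mice, as were those of skeletal muscle, with *Acta1* between 8745 and 18200.5 CPM.

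VEGF ligands are secreted dimers that bind receptor tyrosine kinases on endothelial cells. VEGF-A binds both VEGFR1, encoded by *Flt1*, and VEGFR2, encoded by *Kdr*. VEGFR2 carries most of the signal for endothelial growth, migration and permeability, while VEGFR1 binds the ligand tightly, signals weakly and is also made as a soluble form that holds the ligand back. VEGF-B and placental growth factor (*Pgf*) bind VEGFR1. VEGF-C acts mainly on lymphatic endothelium through VEGFR3, encoded by *Flt4*, and the neuropilins hold ligands to the receptors and also bind class 3 semaphorins. In skin, keratinocytes and macrophages are known sources of VEGF-A, and vessels of the dermis carry the receptors. Counts per gene do not separate the splice forms of *Vegfa* or the soluble form of *Flt1*.

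The genes lie on 7 chromosomes of the mouse genome build GRCm38 (mm10). On the minus strand are *Vegfa* (ENSMUSG00000023951, chr17:46016993-46032369), *Vegfb* (ENSMUSG00000024962, chr19:6982473-6987651), *Pgf* (ENSMUSG00000004791, chr12:85166635-85177790), *Flt1* (ENSMUSG00000029648, chr5:147561604-147726011) and *Kdr* (ENSMUSG00000062960, chr5:75932827-75978458). On the plus strand are *Vegfc* (ENSMUSG00000031520, chr8:54077606-54187096), *Flt4* (ENSMUSG00000020357, chr11:49609263-49652739), *Nrp1* (ENSMUSG00000025810, chr8:128358604-128503363) and *Nrp2* (ENSMUSG00000025969, chr1:62703285-62818695). Among the exons of the 9 genes, none overlapped an annotated exon of another gene except for *Nrp1*, which shares 0.818% of its exon bases with *Mir1903*. The promoter windows of the 2 genes that passed the test and of *Flt1*, the receptor of the same ligand that did not, are shown so that their sequence can be set beside those results. Each runs from 250 bases before to 50 bases after a transcription start in the RefSeq annotation (GRCm38.p6), on the strand of the gene. Capitals mark the letters of 3 short motifs, on either strand: the core bound by hypoxia-inducible factors (ACGTG or GCGTG), the Sp1 box (GGGCGG) and a core bound by ETS factors (CCGGAA). The windows are chr17:46032328-46032627 for *Vegfa*, chr5:75978406-75978705 for *Kdr* and chr5:147725962-147726261 for *Flt1*.
Vegfa: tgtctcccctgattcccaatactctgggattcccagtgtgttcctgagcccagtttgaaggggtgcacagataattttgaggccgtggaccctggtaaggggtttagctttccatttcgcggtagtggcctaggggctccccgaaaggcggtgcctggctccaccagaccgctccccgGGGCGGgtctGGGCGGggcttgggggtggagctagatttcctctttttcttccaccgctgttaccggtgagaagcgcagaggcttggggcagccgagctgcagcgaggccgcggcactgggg
Kdr: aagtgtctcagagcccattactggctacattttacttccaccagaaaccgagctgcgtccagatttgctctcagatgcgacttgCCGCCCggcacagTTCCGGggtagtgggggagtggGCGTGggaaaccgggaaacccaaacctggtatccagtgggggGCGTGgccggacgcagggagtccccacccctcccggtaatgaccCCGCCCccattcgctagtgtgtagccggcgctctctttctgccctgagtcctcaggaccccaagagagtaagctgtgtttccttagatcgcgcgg
Flt1: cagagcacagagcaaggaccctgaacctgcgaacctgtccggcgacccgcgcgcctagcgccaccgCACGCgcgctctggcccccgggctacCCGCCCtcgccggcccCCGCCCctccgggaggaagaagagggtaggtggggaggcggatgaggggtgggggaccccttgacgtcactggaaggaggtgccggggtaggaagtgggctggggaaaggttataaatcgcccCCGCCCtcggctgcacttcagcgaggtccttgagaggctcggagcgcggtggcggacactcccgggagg
The *Vegfa* window held 2 Sp1 boxes, the *Kdr* window 2 hypoxia cores, 2 Sp1 boxes and 1 ETS core, and the *Flt1* window 1 hypoxia core and 3 Sp1 boxes. Over the first window of each of the 9 genes, 6 held a hypoxia core, 9 an Sp1 box and 1 an ETS core. Of all 32817 promoter windows of this length, 43.8% held a hypoxia core, 35.6% an Sp1 box and 14.9% an ETS core. The window of a second RefSeq start of *Vegfa*, chr17:46025114-46025413, lies inside the gene and held 2 hypoxia cores and 1 Sp1 box. Sequence further than 250 bases before a start was not examined.

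Of the 9 genes, 2 passed the threshold and both were higher after ABT-263. Over all genes tested, 24.2% passed in either direction and 12.4% passed as higher, and 2 of 9 is near the former share. The same 2 genes were those in which every ABT-263-treated mouse lay above every DMSO-treated mouse, a pattern found in 18.7% of all genes tested, and 37.1% of all genes did not overlap in either direction. Log2 fold changes were positive for 7 of the 9 genes and negative for *Vegfb* and *Nrp2*. Their median was 0.42, against 0.0022 over all genes tested.

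**Figure D1:**
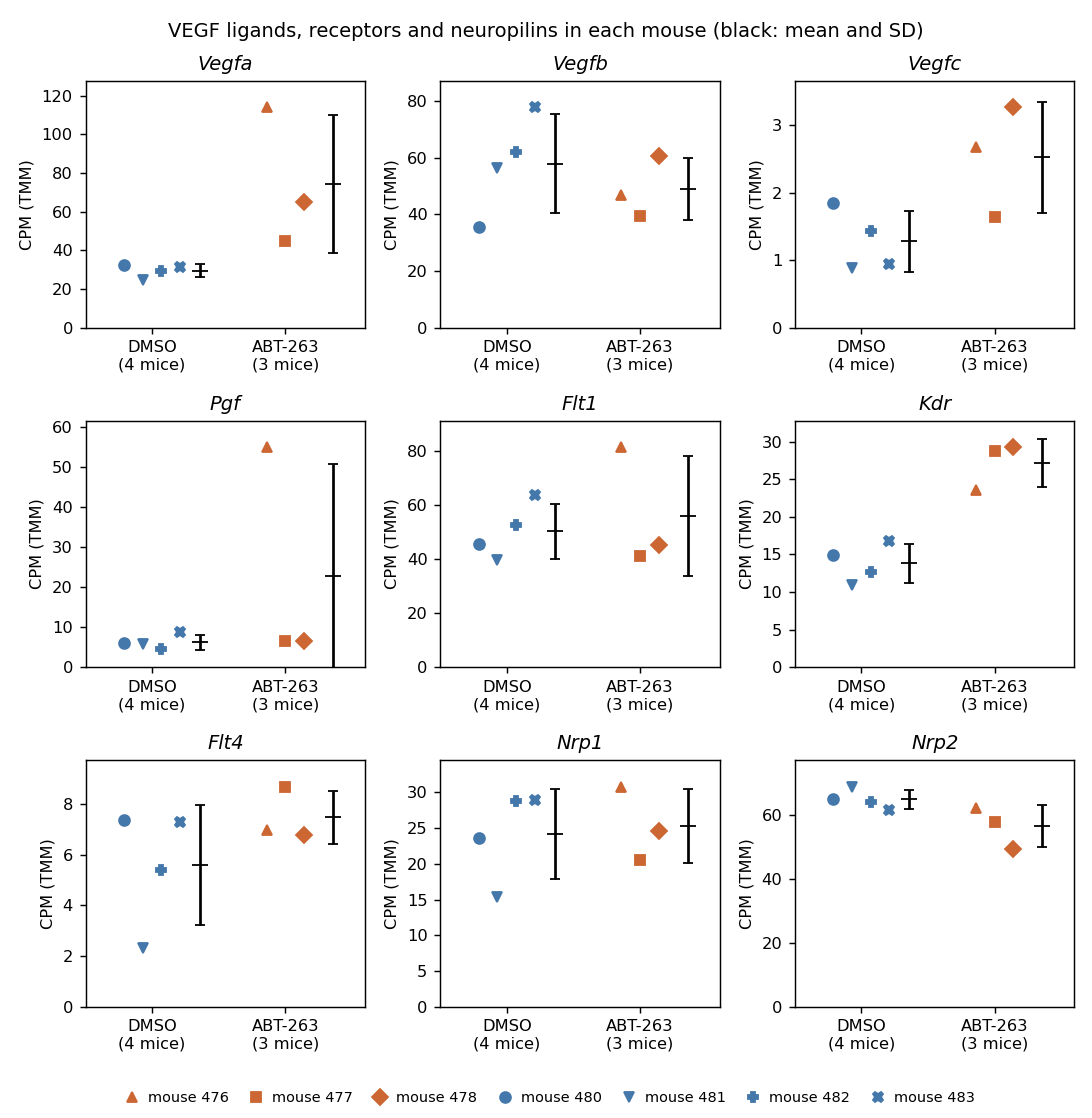
Level of each of the 9 genes in every mouse, in CPM after TMM normalization (vertical axis, from 0), with DMSO-treated mice in blue and ABT-263-treated mice in orange, and the mean and SD of each group in black (for Pgf after ABT-263 the lower end of the SD bar falls below 0). The groups separate for Vegfa and Kdr, mouse 476 alone is high for Pgf, and the groups overlap for the other genes.

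Among the ligands, *Vegfa* stood at 32.5, 24.7, 29.4 and 31.3 CPM in the DMSO-treated mice 480, 481, 482 and 483, and at 113.9, 44.6 and 64.9 CPM in the ABT-263-treated mice 476, 477 and 478. The lowest treated mouse, 477, lay above the highest DMSO-treated mouse, and the treated mice were themselves spread more widely than the controls. The mean went from 29.5 ± 3.44 CPM with DMSO (SD, n = 4) to 74.5 ± 35.7 CPM with ABT-263 (SD, n = 3). The log2 fold change was 1.34 (standard error 0.29, 95% interval 0.68 to 2.00, edgeR adjusted p = 0.0173). Without mouse 476, which had the highest level, the log2 fold change was 0.90 and the call held, while without DMSO-treated mouse 482 the adjusted p from edgeR was 0.0520. The smallest count of *Vegfa* in any library was 572. In bulk tissue, more cells of a type and more RNA per cell cannot be told apart, and this holds for every gene described here.

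*Pgf*, whose product binds VEGFR1 and is known for raised expression in inflamed and healing tissue, was high in 1 mouse. DMSO-treated mice 480 to 483 had 5.97, 5.77, 4.41 and 8.75 CPM, and ABT-263-treated mice 476, 477 and 478 had 55.1, 6.65 and 6.53 CPM. Mice 477 and 478 thus lay inside the range of the controls, and only mouse 476 lay outside it. Over all mice its log2 fold change was 1.86, with a 95% interval from 0.10 to 3.63 and an adjusted p of 0.110 from edgeR. Without mouse 476 it was 0.087 (edgeR adjusted p = 0.869). The same mouse was the highest of all 7 for *Vegfa*, *Flt1* and *Nrp1*, and for the summed levels of the macrophage markers (2950 CPM, against 832 to 1192 CPM in the other treated mice) and the neutrophil markers (8131 CPM, against 5096 to 5561 CPM). The neutrophil sum came mostly from *S100a8* and *S100a9*.

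*Vegfc*, the lymphatic growth factor, was the least expressed of the 9 genes in the control mice per length of exon. Its counts were 21 to 45 read pairs per library in the control mice and 21 to 152 over all 7 libraries. It was found at 1.84, 0.885, 1.44 and 0.945 CPM in the DMSO-treated mice and at 2.68, 1.64 and 3.27 CPM in the ABT-263-treated mice. Mouse 477 lay below DMSO-treated mouse 480, so the groups overlapped. The log2 fold change was 0.98 (95% interval 0.12 to 1.85) and did not pass over all genes (edgeR adjusted p = 0.0886). With the counts thinned to the smallest library the adjusted p from edgeR was 0.0477.

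*Vegfb*, a ligand of VEGFR1 with high expression in striated muscle and other oxidative tissues, had a level of 57.9 ± 17.5 CPM in the DMSO-treated mice (SD, n = 4) and 49.0 ± 10.8 CPM in the ABT-263-treated mice (SD, n = 3). DMSO-treated mice 480 to 483 had 35.5, 56.3, 62.1 and 77.8 CPM and ABT-263-treated mice 476 to 478 had 46.9, 39.4 and 60.7 CPM, all treated mice inside the range of the controls. The log2 fold change was −0.24, with a 95% interval from −0.85 to 0.36 and an adjusted p of 0.529 from edgeR. The 8 skeletal muscle markers, summed, ran over 34823 to 70787 CPM in DMSO-treated and over 27647 to 36598 CPM in ABT-263-treated mice. Of these markers, 2 fell (*Tnnc2* and *Tnnt3*), against 11.7% of all genes tested. Without mouse 480 the number that fell was 4 and without each of the other 6 mice it was 1, and *Tnnt3* kept its call in 1 of 7 such fits. DMSO-treated mice 480 and 483 were the lowest and the highest control both for this sum and for *Vegfb*. The part of muscle tissue in the *Vegfb* values was not tested.

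Among the receptors, *Kdr* was measured at 14.98, 10.9, 12.7 and 16.8 CPM in DMSO-treated mice 480 to 483 and at 23.5, 28.7 and 29.3 CPM in ABT-263-treated mice 476 to 478. The groups did not overlap, and mouse 476, the highest for *Vegfa*, was the lowest of the treated mice for *Kdr*. The mean rose from 13.8 ± 2.60 CPM with DMSO (SD, n = 4) to 27.2 ± 3.17 CPM with ABT-263 (SD, n = 3), or by 0.97 on the log2 scale (standard error 0.18, 95% interval 0.56 to 1.38, edgeR adjusted p = 0.0111). The call held without any 1 of the 7 mice, with log2 fold changes from 0.87 to 1.08.

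*Flt1*, the receptor that binds VEGF-A, VEGF-B and placental growth factor, had 45.7, 39.8, 52.5 and 63.6 CPM in the DMSO-treated mice and 81.5, 41.0 and 45.2 CPM in the ABT-263-treated mice. Mice 477 and 478 lay within the range of the controls and mouse 476 above it. Group means were 50.4 ± 10.2 CPM (SD, n = 4) and 55.9 ± 22.2 CPM (SD, n = 3). Its log2 fold change of 0.15 (edgeR adjusted p = 0.705) turned to −0.22 without mouse 476. A change of more than 1.69-fold upward or to under 0.728-fold lies outside its 95% interval.

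*Flt4*, the receptor for VEGF-C, stood at 7.37, 2.32, 5.39 and 7.31 CPM in the DMSO-treated mice and at 6.97, 8.70 and 6.77 CPM in the ABT-263-treated mice. Only mouse 477 lay above the range of the controls, and DMSO-treated mouse 481 was far below the other mice with 55 read pairs. The log2 fold change was 0.42, with a 95% interval from −0.43 to 1.26 and an adjusted p of 0.432 from edgeR. Neither neuropilin passed. *Nrp1*, the co-receptor found mostly with VEGFR2, was at 24.2 ± 6.34 CPM in the DMSO-treated mice (SD, n = 4) and 25.3 ± 5.20 CPM in the ABT-263-treated mice (SD, n = 3), with a log2 fold change of 0.066 (95% interval −0.49 to 0.62, edgeR adjusted p = 0.866). *Nrp2*, found with VEGFR3 on veins and lymphatic vessels, was the steadiest of the 9 genes, at 64.8, 68.7, 64.0 and 61.5 CPM in the DMSO-treated mice and at 62.1, 57.8 and 49.2 CPM in the ABT-263-treated mice. Mouse 476 lay inside the range of the controls and the other 2 below it, and the log2 fold change was −0.20 (95% interval −0.48 to 0.078, edgeR adjusted p = 0.252).

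**Figure D2:**
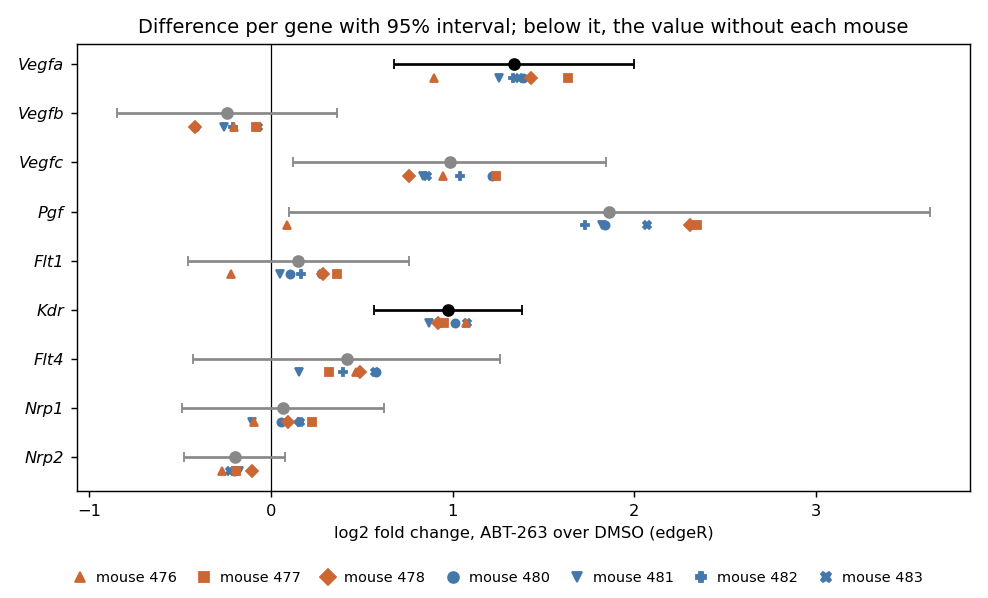
Log2 fold change of each gene, ABT-263 over DMSO, from edgeR (horizontal axis), with its 95% interval as a bar (black where the adjusted p is under 0.05, grey otherwise), and in the row under it the value with each mouse left out, marked by the mouse left out. Vegfa and Kdr stay above 0 throughout, Pgf drops to 0.087 without mouse 476, and Flt1 and Nrp1 cross 0.

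Divided by the joint length of all annotated exons of each gene, *Vegfb* had the highest mean level of the 9 genes in both groups. That length can exceed the length of any 1 transcript, by an amount that differs between genes, so comparisons between genes are rough. After DMSO the order of mean levels was *Vegfb* (36.1 CPM per kilobase), *Vegfa* (6.88), *Nrp2* (5.47), *Flt1* (3.73), *Nrp1* (2.47), *Pgf* (2.15), *Kdr* (1.53), *Flt4* (0.680) and *Vegfc* (0.521). The ranges over mice were apart only between *Vegfb* and *Vegfa*, between *Nrp2* and *Flt1* and between *Kdr* and *Flt4*, and the other neighbours in that order overlapped. After ABT-263 the means ran *Vegfb* (30.5 CPM per kilobase), *Vegfa* (17.4), *Pgf* (7.84), *Nrp2* (4.76), *Flt1* (4.14), *Kdr* (3.01), *Nrp1* (2.58), *Vegfc* (1.03) and *Flt4* (0.908), with a gap between the ranges only between *Nrp1* and *Vegfc*. The place of *Pgf* in that order rests on mouse 476. As a share of the 4 ligands per kilobase, *Vegfa* made up 12.3% to 23.4% in the DMSO-treated mice and 26.8% to 35.05% in the ABT-263-treated mice. *Kdr* made up 23.6% to 27.9% of the 3 receptors after DMSO and 27.5% to 43.7% after ABT-263, and these ranges overlapped.

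**Figure D3:**
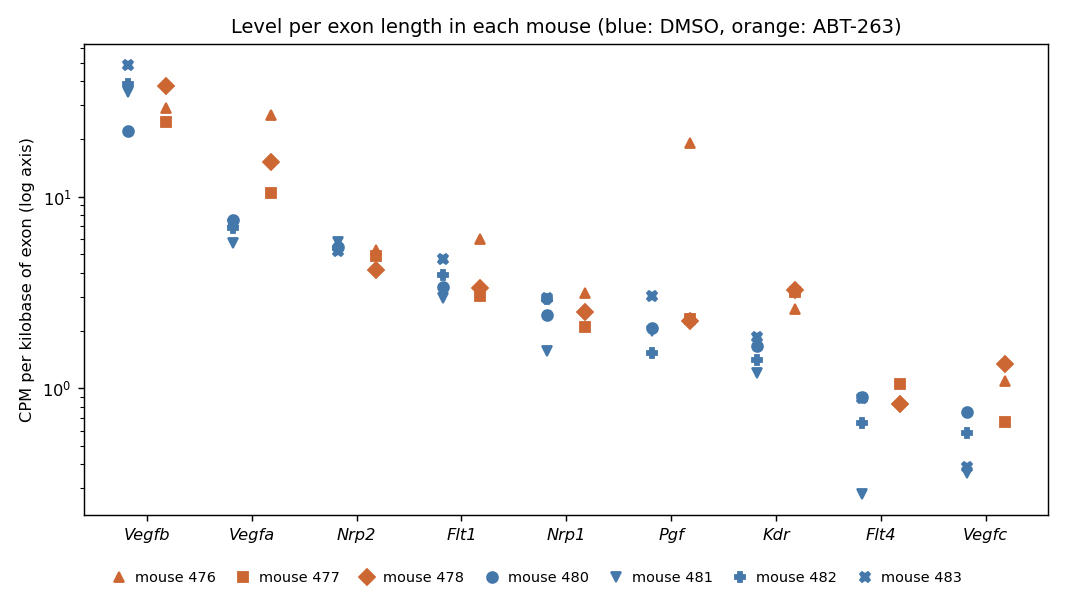
Level of each gene in every mouse per kilobase of exon (vertical axis, CPM per kilobase, log axis), genes ordered by their mean in the DMSO-treated mice, which are blue, with ABT-263-treated mice in orange. Vegfb has the highest mean in both groups, and Vegfc and Flt4 have the lowest.

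Ratios of 2 transcripts within a library do not depend on how the libraries were scaled, and 8 of them were compared with an exact permutation test over all 35 splits of the 7 mice, two-sided, for which the smallest possible p is 0.0286. None passed after Benjamini-Hochberg adjustment over the 8 ratios, and 2 had an unadjusted p under 0.05 in this exact test. A single ratio at the smallest possible p cannot pass after adjustment over 8, so not passing decides little about any 1 of them. The ratio of *Flt1* to *Kdr* in CPM was 3.04, 3.63, 4.11 and 3.77 in DMSO-treated mice 480 to 483, and 3.45, 1.43 and 1.54 in ABT-263-treated mice 476 to 478. Mice 477 and 478 lay below all controls and mouse 476 among them. The log2 ratio differed by −0.88 (exact permutation p = 0.0571, adjusted 0.114). The ratio of *Vegfa* to *Vegfb* was 0.917, 0.439, 0.474 and 0.403 in the DMSO-treated mice and 2.43, 1.13 and 1.07 in the ABT-263-treated mice, with no overlap and a log2 difference of 1.44 (exact permutation p = 0.0571, adjusted 0.114). The ratios of *Nrp1* to *Nrp2* (log2 difference 0.29), *Pgf* to *Vegfa* (−0.096), *Vegfc* to *Flt4* (0.40) and *Flt4* to *Prox1* (0.55) had exact permutation p-values between 0.400 and 0.886.

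The receptors were set beside *Cdh5*, the gene of the endothelial adhesion protein VE-cadherin. *Cdh5* rose from 21.7 ± 5.07 CPM with DMSO (SD, n = 4) to 81.8 ± 21.04 CPM with ABT-263 (SD, n = 3), a log2 fold change of 1.92 (edgeR adjusted p = 0.00622). Relative to it, *Flt1* ran from 1.80 to 2.76 in the DMSO-treated mice and from 0.570 to 0.784 in the ABT-263-treated mice, and *Kdr* from 0.570 to 0.760 and from 0.227 to 0.464. Both ratios were lower in every treated mouse than in any control mouse. The log2 ratio differed by −1.81 for *Flt1* and by −0.93 for *Kdr*, each with an exact permutation p of 0.0286, the smallest this design can give, and an adjusted value of 0.114. Among the 20 blood endothelial markers described below, *Cdh5* had the largest log2 fold change, against a median of 1.06. By point estimate, *Kdr*, at 0.97, lay just under that median and *Flt1*, at 0.15, under all 20 markers. These ratios therefore hold for *Cdh5* as the reference, and ratios to the other markers were not computed.

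**Figure D4:**
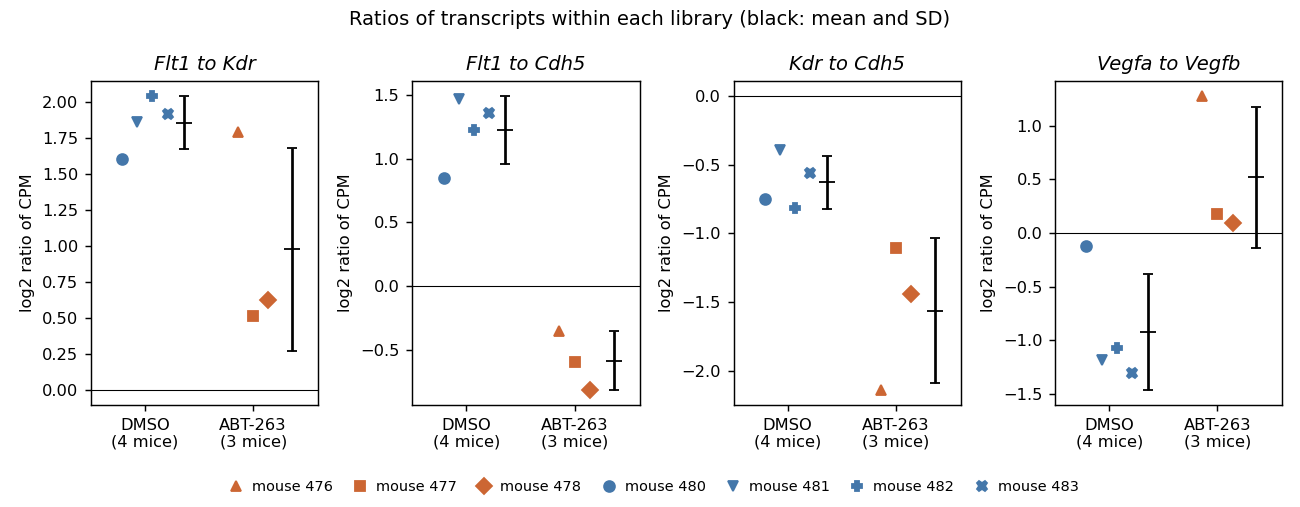
Log2 ratio of CPM values within each library for 4 pairs of genes (vertical axis), by group, with the mean and SD in black. Flt1 to Cdh5 and Kdr to Cdh5 are lower and Vegfa to Vegfb higher in all 3 ABT-263-treated mice than in the 4 DMSO-treated mice, and for Flt1 to Kdr mouse 476 lies among the controls.

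Of 20 markers of blood endothelium most rose. All 20 had a positive log2 fold change, with a median of 1.06 against 0.0022 over all genes tested. Of the 20, 12 passed the threshold as higher (*Cdh5*, *Tek*, *Erg* and *Eng* with the smallest p-values) and none as lower, and 16 had treated mice all above the controls, against 12.4% and 18.7% of all genes tested. Summed, they ran from 559 to 1165 CPM in the DMSO-treated mice and from 1505 to 1866 CPM in the ABT-263-treated mice. *Erg*, a transcription factor of endothelial identity, had a log2 fold change of 1.63 (edgeR adjusted p = 0.00726), and *Pecam1*, an adhesion molecule of endothelium and some blood cells, one of 1.03 (edgeR adjusted p = 0.0280). By point estimate, *Kdr*, at 0.97, lay just under the median of these markers. *Flt1*, at 0.15, lay under every one of them, the lowest being *Cd34* at 0.29. The interval of *Flt1*, from −0.46 to 0.76, holds the estimates of *Cd34* and of some other markers, and these differences were not tested. The number of the 20 markers passing was 7, 4, 5, 5 and 4 without mice 481, 482, 483, 476 and 478, and 16 without mouse 480. The part of these markers in the *Kdr* values was not tested.

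Of 7 markers of lymphatic endothelium, set beside *Flt4*, 6 were tested and none passed in edgeR, with a median log2 fold change of 0.35. At an unadjusted p under 0.05 there were 3 (*Pdpn* and *Mmrn1* higher, *Tbx1* lower), and the DESeq2 Wald test with default filters called 3. *Prox1*, the transcription factor that defines lymphatic endothelium, was counted 17 to 41 times per library and stood at 0.739 to 1.19 CPM after DMSO and 0.881 to 1.00 CPM after ABT-263 (log2 fold change −0.041, edgeR adjusted p = 0.939). *Lyve1*, a hyaluronan receptor shared by lymphatic vessels and some macrophages, had a log2 fold change of 0.74 (edgeR adjusted p = 0.273). *Ccl21a*, a further lymphatic marker, is listed at 0 in every mouse, and since it has near-identical copies its counts are uncertain. The summed markers ran over 101 to 130 CPM in DMSO-treated and over 118 to 237 CPM in ABT-263-treated mice. Most of the sum after DMSO came from *Tbx1* and *Pdpn*, with means of 43.8 and 37.7 CPM, against 0.963 CPM for *Prox1*.

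**Figure D5:**
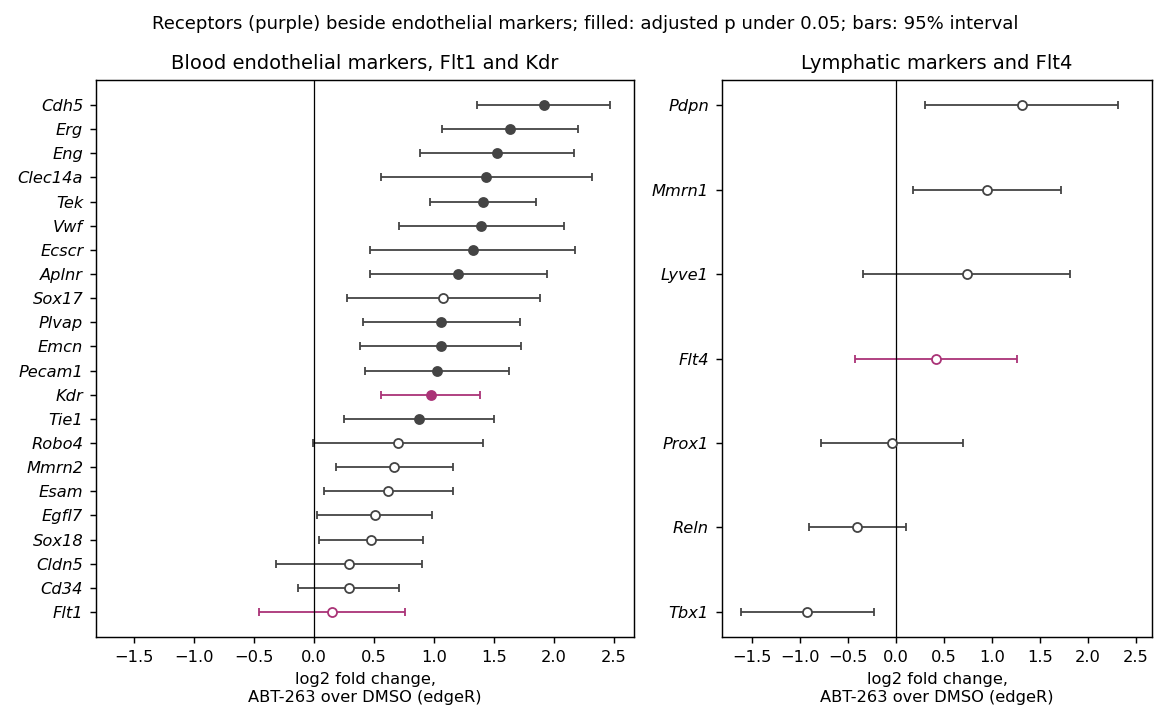
Log2 fold change (horizontal axis, ABT-263 over DMSO, edgeR) with 95% intervals for Flt1 and Kdr among the 20 blood endothelial markers (left) and for Flt4 among the 6 lymphatic markers tested (right), the receptors in purple and filled points for an adjusted p under 0.05. The estimates of all 20 blood endothelial markers lie above 0 and that of Flt1 lies under all of them, with an interval that covers some of them. The estimates of the lymphatic markers lie on both sides of 0.

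Genes that process VEGF-C, together with *Vegfd*, the remaining ligand of VEGFR3, were counted as a list of 5. Of these, 4 were tested, 2 rose and 1 fell, against 12.4% higher and 11.7% lower over all genes tested. *Vegfd* was at 25.9 ± 3.63 CPM in the DMSO-treated mice (SD, n = 4) and 36.1 ± 1.89 CPM in the ABT-263-treated mice (SD, n = 3), with no overlap of the groups and a log2 fold change of 0.48 (edgeR adjusted p = 0.0421). *Ccbe1*, an extracellular protein needed for the activation of VEGF-C, had a log2 fold change of 1.49 (edgeR adjusted p = 0.0306). *Adamts14*, a protease related to the one that cleaves VEGF-C, fell by 1.09 on the log2 scale (edgeR adjusted p = 0.0288). *Adamts3*, that protease, had 18 read pairs in all 7 libraries and was not tested. Without 1 mouse most of these calls were lost, in fits where many calls over all genes were lost too. *Vegfd* passed in 0 of 7 such fits and *Ccbe1* and *Adamts14* in 2 of 7 each.

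Of 11 genes that release VEGF from the matrix or hold it there, 8 rose and none fell, against 12.4% and 11.7% of all genes tested. Their median log2 fold change was 1.02. *Thbs2*, an inhibitor of vessel growth, was 1.229 higher on the log2 scale (edgeR adjusted p = 0.0153), and *Plau*, the urokinase that activates plasmin, 0.81 higher (edgeR adjusted p = 0.0171). *Mmp2* and *Mmp9*, gelatinases that cut matrix, had log2 fold changes of 1.17 and 3.63 (edgeR adjusted p = 0.0185 and 0.0194). The genes that rose thus included both proteases and inhibitors of vessel growth. Between 1 (without DMSO-treated mouse 482) and 7 of them passed with 1 mouse left out, with 5 without mouse 480 and 4 each without mice 481, 483, 476 and 478. With no filter on low counts 5 passed.

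Hypoxia-inducible factors are known activators of *Vegfa* and *Flt1*. Of 9 genes for these factors and the enzymes that mark them for degradation, 2 rose and 1 fell. The shares over all genes tested were 12.4% and 11.7%, and 24.2% passed in either direction. *Hif1a*, the oxygen-regulated subunit, was at 36.7, 28.5, 34.0 and 36.7 CPM in DMSO-treated mice 480 to 483 and at 145.6, 72.1 and 93.5 CPM in ABT-263-treated mice 476 to 478. The treated mice lay above all controls, in the order in which they lay for *Vegfa*, an order that some marker sums share and others do not. The log2 fold change of *Hif1a* was 1.61 (edgeR adjusted p = 0.00681), and its part in the *Vegfa* values was not tested. *Epas1*, the endothelial relative of *Hif1a*, had a log2 fold change of 0.74 (edgeR adjusted p = 0.0441) and *Hif1an*, which inhibits them, one of −0.48 (edgeR adjusted p = 0.04996). The call of *Hif1a* held without any 1 mouse, those of *Epas1* and *Hif1an* in 2 and 1 of 7 such fits, and without mouse 480 there were 4 genes that rose. These are transcript levels, and the factors are regulated mainly as proteins.

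Of 19 genes known to be induced by hypoxia, apart from *Vegfa*, 6 rose and 1 fell, against 12.4% and 11.7% of all genes tested. Their median log2 fold change was 0.48. *Adm*, which encodes the vessel-dilating peptide adrenomedullin, was 2.34 higher on the log2 scale, *Ero1a*, an oxidase of protein folding, 1.52, *Pfkfb4*, a regulator of glycolysis, 1.02 and *Ddit4*, an inhibitor of mTOR signaling, 0.94 (edgeR adjusted p = 0.0107, 0.0189, 0.00912 and 0.0332). *Mif*, a cytokine, fell by 0.89 on the log2 scale (edgeR adjusted p = 0.0382), a call that held in 1 of 7 fits with 1 mouse left out (without mouse 477) and not with length and GC trends removed. *Ldha* and *Pgk1*, enzymes of glycolysis under the same control, had log2 fold changes of −0.075 and 0.32 and did not pass. Without mice 481, 482, 483 and 476 the number that rose was 3, 3, 2 and 3.

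Of 32 genes of signaling intermediates tested downstream of the receptors, 9 rose and 4 fell, against 12.4% and 11.7% of all genes tested. Their median log2 fold change was 0.30. *Map2k1*, the kinase MEK1 of the MAP kinase cascade, was 1.38 higher on the log2 scale, *Akt1*, the survival kinase, 1.11, *Rac1*, a GTPase of cell migration, 0.80 and *Fyn*, a Src family kinase, 0.72 (edgeR adjusted p = 0.00602, 0.00733, 0.0112 and 0.00941). *Ppp3ca*, the catalytic subunit of calcineurin, fell by 0.90 on the log2 scale, *Pik3ca*, a catalytic subunit of PI3 kinase, by 0.80 and *Hspb1*, a small heat shock protein, by 0.63 (edgeR adjusted p = 0.0132, 0.00713 and 0.0188). Most of these genes are used by many cell types and receptors. With 1 mouse left out 6 to 10 rose, the lowest without mice 482 and 483, and 2 to 4 fell, the lowest without mice 482, 476 and 478.

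Of 12 genes that VEGF-A is known to induce in endothelial cells, 5 rose and none fell, against 12.4% and 11.7% of all genes tested. Their median log2 fold change was 1.17. *Vcam1* and *Icam1*, adhesion molecules for leukocytes, had log2 fold changes of 2.66 and 1.91, *Nid2*, a basement membrane protein, 2.23 and *Egr1*, an immediate early transcription factor, 0.98 (edgeR adjusted p = 0.0131, 0.0146, 0.00713 and 0.0280). *Vcam1*, *Icam1* and *Egr1* are also induced by inflammatory signals and are not limited to endothelium. *Dll4*, *Esm1* and *Apln*, markers of growing vessel tips, did not pass, with log2 fold changes of 1.02, 1.74 and 0.95 (edgeR adjusted p = 0.0582, 0.0795 and 0.190). *Rcan1*, an early target of calcineurin signaling, had a log2 fold change of −0.36 (edgeR adjusted p = 0.195). Without mice 482 and 483, 3 genes rose in each case.

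In the angiopoietin and Tie system, the other main receptor system of vessels, 4 of 6 genes rose and none fell. Over all genes tested 12.4% rose and 11.7% fell, and the median log2 fold change of the 6 genes was 0.88. *Tek*, the receptor Tie2, was 1.41 higher on the log2 scale (edgeR adjusted p = 0.00628), *Ptprb*, a phosphatase that acts on it, 0.89 (edgeR adjusted p = 0.0152), *Tie1*, its partner, 0.88 (edgeR adjusted p = 0.0487), and *Angpt2*, its context-dependent ligand, 2.33 (edgeR adjusted p = 0.0309). *Angpt1*, the activating ligand made by cells around vessels, had a log2 fold change of 0.56 (edgeR adjusted p = 0.192). The number that rose was 2 in each case without mice 481, 482, 483, 476 and 478, and 2 with no filter on low counts. *Tek* and *Tie1* are also counted among the blood endothelial markers. *Tek* kept its call without any 1 mouse and *Tie1* in 1 of 7 such fits.

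Class 3 semaphorins compete with VEGF for neuropilins and signal through plexins. Of 12 genes, 2 rose and 2 fell, with a median log2 fold change of −0.16. *Plxnd1*, the plexin of endothelium, was 0.56 higher on the log2 scale (edgeR adjusted p = 0.0300) and *Sema3a*, a ligand that acts through *Nrp1*, 1.15 (edgeR adjusted p = 0.0477), at 1.82 ± 0.541 CPM (SD, n = 4) after DMSO. *Plxna3* and *Plxna4*, neuropilin partners known from neurons, fell by 0.95 and 0.86 on the log2 scale (edgeR adjusted p = 0.0267 and 0.0308). Without mice 483, 476 and 478 none of the 12 passed, and without mice 481 and 482 there were 2 and 1.

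Other cell types moved too, where 12.4% of all genes tested rose and 11.7% fell. Of 10 macrophage markers 8 rose and none fell, with a median log2 fold change of 1.88, among them *Cd163* (2.07, edgeR adjusted p = 0.00628), *Cd14* (3.67, 0.0170), *Lyz2* (2.43, 0.0210) and *Csf1r* (1.55, 0.0176). *Cd14* stood at 176 ± 198 CPM after ABT-263 (SD, n = 3), and its log2 fold change ran from 2.20 to 4.18 with 1 mouse left out. Summed, the macrophage markers ran over 220 to 531 CPM in DMSO-treated and over 832 to 2950 CPM in ABT-263-treated mice. The treated mice lay in the order 477, 478 and 476, as they did for *Vegfa*. The neutrophil and blood endothelial sums had the same order, and the fibroblast and keratinocyte sums did not. Of 8 neutrophil markers 5 were tested and 2 rose (*S100a8* and *Csf3r*), with summed levels of 100 to 1822 CPM after DMSO and 5096 to 8131 CPM after ABT-263. Most of this sum came from *S100a8* and *S100a9*, with means of 2236 and 3941 CPM after ABT-263, against 33.7 CPM for *Csf3r*. *S100a8* is also made by stressed keratinocytes, and the neutrophil genes *Ly6g*, *Camp* and *Ngp* did not pass the filter on low counts, with 173 to 419 read pairs each over all libraries, most of them from mouse 476. The number that rose among macrophage markers was 5, 5, 2, 4 and 4 without mice 481, 482, 483, 476 and 478 and 2 with no filter on low counts, and among neutrophil markers 1 in each case without mice 482, 483, 476 and 478 and 0 of 8 with no filter. Of 8 fibroblast markers 4 rose (median 0.65, with *Col3a1* at 2.93, *Pdgfra* at 1.72, *Lum* at 1.65 and *Col1a2* at 0.83), at summed levels of 4235 to 6093 CPM and 8541 to 13760 CPM. Of 12 keratinocyte markers 1 rose (*Dsg3*, log2 fold change 0.87), and their summed level overlapped, at 28426 to 84201 CPM after DMSO and 27190 to 77028 CPM after ABT-263. None of them passed without mouse 482 or without mouse 483, and 3 rose without mouse 480. Pericyte and smooth muscle markers, with 1 of 10 higher (*Kcnj8*, log2 fold change 1.55), and adipocyte markers, with 0 of 6 past the threshold in edgeR, 3 at an unadjusted p under 0.05 and 1 in the DESeq2 Wald test with default filters, had median log2 fold changes of 0.18 and 0.80. The number of pericyte and smooth muscle markers that rose was 0 without mouse 478 and 2 without mouse 477. The part of these cell types in the values of *Vegfa*, *Pgf* and the other 7 genes was not tested.

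To show what else followed the same course over the 7 mice, each gene was set beside the 13680 protein-coding genes with a mean of at least 1 CPM, by the root mean square distance of their log2 profiles after centring. The nearest to *Vegfa* were *Tspan4* (distance 0.0847), *Sema6b* (0.0856) and *Ets1* (0.104), where *Vegfa* itself had a spread of 0.720. Nearest to *Kdr* (spread 0.526) were *Slc10a3* (0.112), *Papss2* (0.132) and *Pcdh18* (0.133), and nearest to *Flt1* (spread 0.346) *Dpysl2* (0.0961), *Cd47* (0.108) and *Fam78a* (0.116). For *Pgf*, whose profile is set by mouse 476, they were *Il7r* (0.210), *Cytip* (0.274) and *Slc39a14* (0.283), at a spread of 1.13. None of the 3 nearest genes of *Kdr* or of *Flt1* belongs to the blood endothelial markers listed above. Those markers are few among 13680 genes, so their absence from 3 places says little about whether the receptors follow them. With 7 mice and this many genes, close profiles are a description of these libraries.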

How the data were processed

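RNA of whole dorsal skin was sequenced from 7 mice. The authors aligned reads to mm10 with STAR (version 2.7.9a) and counted uniquely aligned proper pairs on the same strand with featureCounts (Subread 1.6.2) for non-mitochondrial Ensembl genes. The deposited counts carry no normalization. The authors also deposited a table of variance-stabilized values, close to a log2 scale, made with DESeq2 (version 1.23.10), which served here only as an alternative.

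Symbols, positions and exon lengths were read from GENCODE M21 (GRCm38), where 55190 of 55450 identifiers have an entry and which is not the annotation the authors name. All 200 members and list genes, 4 of which stand in 2 lists, matched 1 identifier each. In R 4.3.3, counts were fitted with edgeR 4.0.16 (TMM, filterByExpr, robust quasi-likelihood fit, no covariates), since the labels name no batch. Intervals are 95%. Ratios of CPM used a pseudocount of 0.1. The edgeR fit was tested on simulated counts and the permutation test on made-up values. Nothing says more than that each library is a separate mouse, so p-values set group differences against the spread between mice. In edgeR that spread is estimated partly from all genes tested.

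The members, the 17 other gene lists and the tests were chosen with earlier results of these data known. Named genes were all members, up to 4 genes per list and direction with the smallest p among those past the threshold, the markers *Cdh5*, *Pecam1*, *Prox1* and *Lyve1*, and the 3 protein-coding genes nearest to a member in profile. A gene that this rule names is not reported here. *Ldha*, *Pgk1*, *Dll4*, *Esm1*, *Apln*, *Rcan1*, *Angpt1*, *Cd34*, *Pdpn*, *Mmrn1*, *Tbx1*, *Krt14*, *Col1a1*, *Acta1*, *S100a9*, *Ccl21a*, *Ly6g*, *Camp*, *Ngp* and *Adamts3* are named outside it, a choice made with their values in view. Alternatives were DESeq2 1.42.0 (Wald test, with and without its filters), limma 3.58.1 on the variance-stabilized values, DESeq2 size factors, no filter, protein-coding genes only, at least 10 counts in each library, removal of length and GC trends (mgcv 1.9.3), thinning to the smallest library and leaving out each mouse.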

Additional observations from a re-analysis of the deposited data

Results flagged for a closer look

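Within the 4 DMSO-treated mice, 1 of 34 measures examined (levels of the members, ratios and summed marker lists) had a value far from the rest. The summed level of the lymphatic endothelial markers was 129.9 CPM in mouse 483 and 101 to 105 CPM in the other 3, and its gap to the nearest mouse took up 0.869 of the whole range, above Dixon's 95% critical value for 4 samples. Chance alone gives such a value in about 1 of 20 groups, or in about 1.7 of 34 measures, which is more than the 1 found. Most of this sum in the DMSO-treated mice came from *Tbx1* and *Pdpn*. In mouse 483, *Flt4* stood at 7.31 CPM, inside the range of the other control mice, and *Prox1* was at 0.739 CPM, the lowest of them. The group of 3 ABT-263-treated mice was too small for this check, so that mouse 476 was not examined in this way.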

How the results depend on the processing

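*Kdr* kept its direction and its call under all 9 alternatives (log2 fold change 0.94 to 1.01) and without any 1 mouse, and *Vegfa* under all 9 (1.228 to 1.37) and without any 1 mouse except DMSO-treated mouse 482. The number of the 9 genes past the threshold was 1 to 2 with 1 mouse left out. *Pgf* passed in the DESeq2 Wald test without filters (adjusted p = 0.0307), had no adjusted p under the default filters, and passed nowhere else, and *Vegfc* passed with thinned counts. With thinned counts, *Vegfc* also became the third gene whose groups did not overlap. With 1 mouse left out the log2 fold change ran from −0.22 to 0.37 for *Flt1*, from −0.10 to 0.23 for *Nrp1* and from −0.15 to 0.074 for *Prox1*, which also was 0.076 with thinned counts, and the difference in the log2 ratio of *Pgf* to *Vegfa* ran from −0.75 to 0.37. Their cause was not tested. Of the 186 other list genes tested, 74 passed, 90 in the DESeq2 Wald test with default filters, 70 with length and GC trends removed, and 34 to 82 with 1 mouse left out (34 without DMSO-treated mice 482 and 483, 38 and 39 without ABT-263-treated mice 478 and 476, and 47 without DMSO-treated mouse 481). Of the 53 list genes past the threshold that the naming rule gave, all kept their sign with 1 mouse left out, and 23 kept the call each time. Over all genes tested, the number higher in these fits ran from 850 to 2286, against 2234 with all mice. The number lower ran from 771 to 2104, against 2108 with all mice. With 1 mouse left out, permutation of the ratios cannot reach 0.05, so those are values only. Scaling by DESeq2 size factors moved the median of all genes by 0.0049 and removal of length and GC trends by −0.018 on the log2 scale. Low counts limit *Vegfc*, *Prox1* and *Adamts3* most. No paired analysis was possible because the mice of the 2 groups share no replicate numbers.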
